A study of Mus musculus with 24 samples.

Results

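The 13 libraries described here are the plantaris muscles of wild-type C57BL/6 mice that had breathed tobacco smoke for 16 weeks. They were taken, by their labels, from a series of 24 plantaris libraries, of which the other 11 come from mice of the same strain and genotype in normal air. The plantaris is a small calf muscle made mostly of fast fibres. Messenger RNA was counted near its 3′ end with poly(A)-primed QuantSeq libraries, so that counts are not divided by gene length. The question was how the smoke-exposed samples differ from each other, across all genes. Values in air are given beside them as background, with no test between the groups. The labels number the samples as replicates without saying that each is a separate mouse, so p-values measure the spread between these samples, which may be technical.

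A frozen limb muscle holds more than muscle fibres. Motor and sensory axons run through it, wrapped by Schwann cells whose compact myelin is held together by proteins of their own. Tendon fibroblasts at its ends, fat between its bundles, vessels and blood each bring RNA of their own. The fibres themselves change their transcripts with contraction, stretch, feeding and time of day, and slow and fast fibres use different myosins and troponins. In bulk RNA, fewer cells of a type and less RNA per cell cannot be told apart, which holds for every marker below.

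The libraries held 2515697 to 4528845 counts, so that 3 counts, the limit that a count of 0 allows, corresponded to 0.662 to 1.19 CPM (counts brought to a common library total, with TMM factors). This limit covers counting error only. Gm42418, a locus that overlaps ribosomal RNA sequence, took 11.3 to 17.8% of counts and mitochondrial genes took 2.35 to 3.39%. To that share nothing came from mt-Co2, mt-Co3, mt-Atp6, mt-Atp8 and mt-Nd4l, which are listed at 0 counts in all 13 samples. Chi-square per gene over the 78 pairs of libraries lay between 2.53 and 10.8, and no pair was merged. Muscle identity was plain in every sample: Myh4, the myosin heavy chain of the fastest fibres, lay between 36184 and 49363 CPM. The 11 markers of that fibre type summed to between 168227 and 196917 CPM, without TMM factors.

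Most genes differed little between smoke samples. The median standard deviation (SD) of log2 CPM was 0.28 over the 10086 tested genes, and the biological coefficient of variation was 13.6%. A gene was called variable when its quasi-likelihood dispersion lay above that of genes of like abundance (edgeR, Benjamini-Hochberg adjusted p under 0.05). By this rule 104 genes were called, which is 1.03% of those tested, and 677 genes (6.71%) passed at an unadjusted p under 0.05. The counts for gene lists below are to be read against these 2 shares, and 0 called genes in a short list is near what they give. The SD falls with abundance as counting noise does, so the median SD of a list is not matched to that of all genes. Of the called genes, 41 had an SD under 0.5, 49 had one of 0.5 to 1 and 14 had one over 1. The 11 air samples, treated in the same way, gave 74 of 10042 genes (0.737%). The 42 genes called in both groups are 40.4% of the smoke calls and 56.8% of the air calls. For 51 of the 104 genes the annotation lists an overlapping gene, and whether strand was used in counting is not given in the sources used here. Their reads may therefore belong in part to a neighbour.

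**Figure D1:**
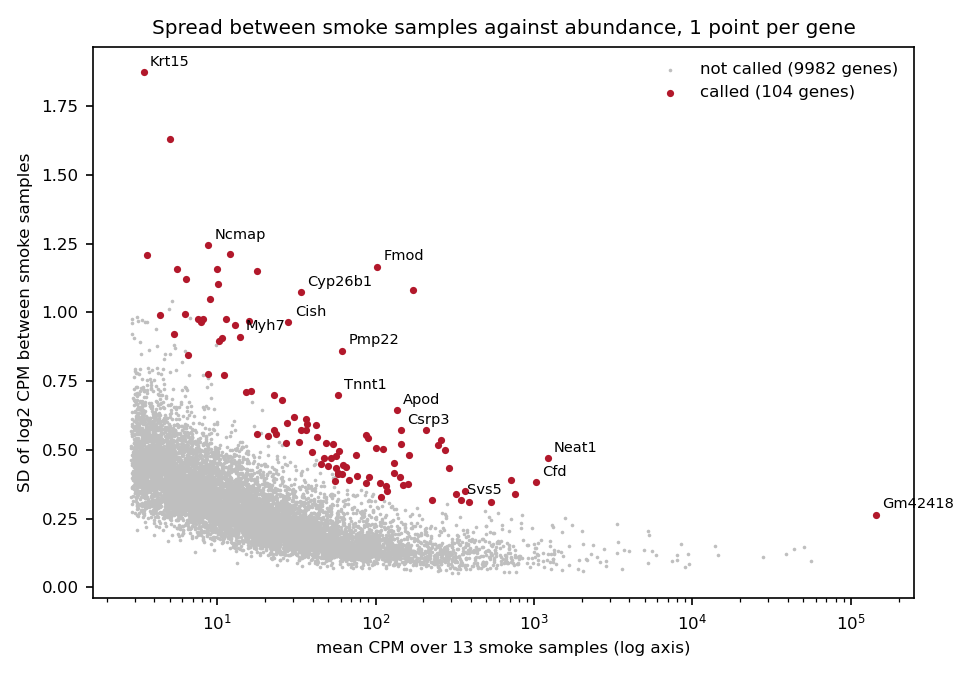
SD of log2 CPM between the 13 smoke samples (vertical axis) against mean CPM (horizontal log axis), 1 point per tested gene, with the 104 called genes in red. Most genes lie near an SD of 0.28, and the called genes stand above others of like abundance, from Krt15 at 1.87 down to Gm42418 at 0.27.

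Replicates 2 and 10 stood apart from the rest. Replicate 2 had the highest level of all 13 samples in 13.4% of tested genes, and replicate 10 had the highest in 12.3% and the lowest in 12.5%, where an even split would give 7.69%. The first principal component, 18.1% of the variance, placed replicate 10 at 33.8 and replicate 2 at 26.2, with the other samples between −15.3 and 2.57. Among the genes with the largest positive weight on it were the myelin genes Ncmap, Drp2 and Prx, and mt-Nd3 was among those with the largest negative weight. Replicate 2 was the sample farthest from the median for 34 of the called genes, replicate 10 for 20 and replicate 11 for 12. Without replicates 2 and 10, 118 genes were called, 77 of them among the 104. That the 2 samples were set aside together was decided after the component had been seen.

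**Figure D2:**
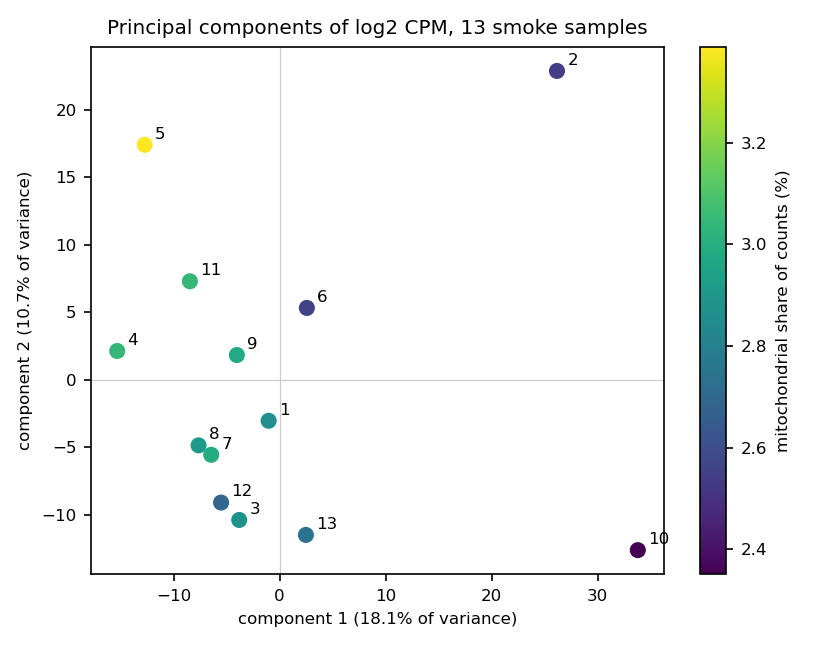
First and second principal components of log2 CPM for the 13 smoke samples, numbered by replicate and coloured by the mitochondrial share of counts (%). Replicates 2 and 10 lie at 26.2 and 33.8 on component 1, and the colour runs from 2.35% in replicate 10 to 3.39% in replicate 5.

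Pearson's r of the mitochondrial share with component 1 over the 13 samples was −0.83 (permutation p = 5e-05, Benjamini-Hochberg adjusted p = 0.001 over 20 relations). Spearman's rho was −0.91 (permutation p = 0.0001, adjusted p = 0.002), and r was −0.78 without replicates 10 and 5, the farthest from the median share. Without replicate 10 alone r was −0.63 and the adjusted permutation p was 0.141. Share and component come from the same counts, and 8 of the 13 mitochondrial mRNAs contribute to the share. The Gm42418 share had r 0.66 with component 1 and did not pass (adjusted permutation p = 0.0506), and library size had r −0.13 (adjusted permutation p = 0.722).

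The called genes fell into groups that shared a profile over the samples. Clustering on correlation gave 4 clusters of 8 or more genes, with 61 of the 104 genes, and 13 smaller ones of 2 to 7 genes. Only Fkbp5 and Pfkfb3 stood alone. The clusters were made from these values, so they are described without a test. Replicate 2 was the highest sample in 3 of the 4 large clusters, by mean z score. The profiles are given below in order of the tissue part or programme whose known genes lead them.

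**Figure D3:**
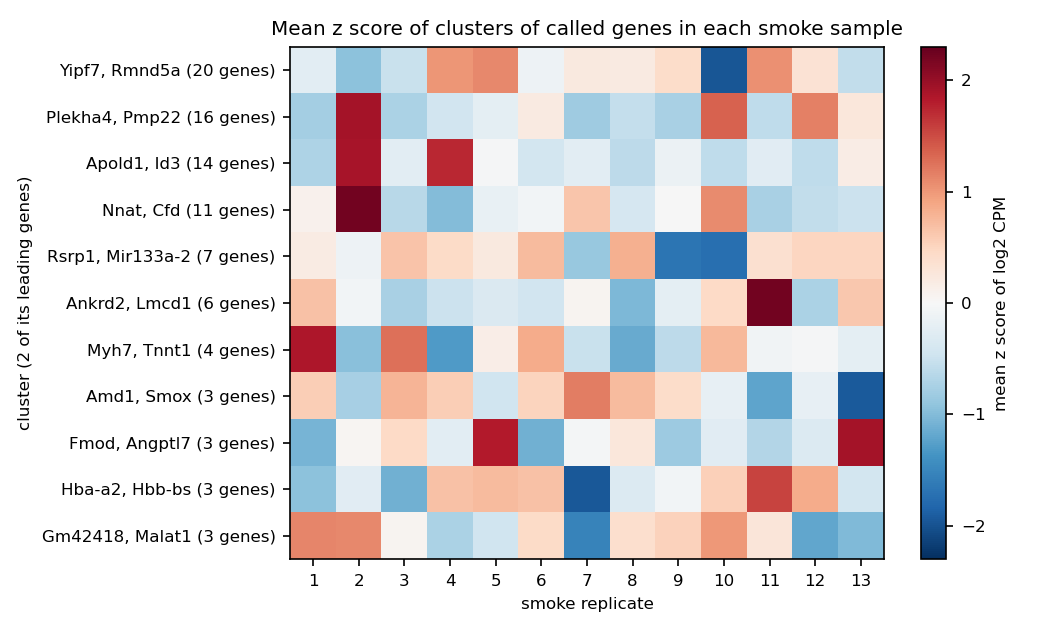
Mean z score of log2 CPM in each smoke sample (columns, replicates 1 to 13) for the 11 clusters of 3 or more called genes (rows, named by 2 of their leading genes with the number of genes). Myelin genes are high in replicates 2, 10 and 12, the cluster with Ankrd2 in replicate 11 and tendon genes in replicates 5 and 13.

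Peripheral myelin genes led one of the large clusters. This cluster of 16 genes included Pmp22, Prx, Drp2, Ncmap, Mbp, Dhh, Plekha4, Ndrg1, Apod, Ptprf, Aatk, Sema3b, Scd2, Vat1l and Frzb. Pmp22, a membrane protein of compact myelin, had a lowest level of 27.7, a median of 37.6 and a highest of 144 CPM. It stood at 144 CPM in replicate 2, 140 in replicate 10 and 116 in replicate 12, and at most 69.5 CPM in the other 10 samples. Its highest level was 5.18-fold its lowest (SD of log2 CPM 0.86, edgeR adjusted p = 1.26e-06).

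The same 3 samples led for other genes of the cluster. Apod (apolipoprotein D), a lipid carrier, ran from 64.0 (median 110.4) to 300.1 CPM, with replicates 10 and 12 at 258 and 192 CPM (SD 0.64). Prx (periaxin) and Drp2 (dystrophin-related protein 2) form a complex that links the Schwann cell membrane to the basal lamina. Prx ran from 1.78 (median 5.94) to 39.0 CPM and Drp2 from 2.76 (median 5.05) to 36.7 CPM, both highest in replicate 2, with edgeR adjusted p = 0.000106 and 5.95e-05. Ncmap, a protein of non-compact myelin, ran from 1.38 (median 3.82) to 36.1 CPM (edgeR adjusted p = 0.000104), and Dhh, the ligand by which Schwann cells organise the nerve sheath, from 0.561 (median 2.88) to 18.7 CPM. Prx, Ncmap and Dhh have overlapping genes in the annotation. Mbp, the basic protein of the inner face of myelin, varied less, from 38.9 (median 55.9) to 100 CPM (edgeR adjusted p = 0.00837), and was also high in replicate 6, at 96.4 CPM.

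In the air samples most of these genes varied less. Air Pmp22 ran from 23.4 (median 32.6) to 42.9 CPM and air Apod from 78.1 (median 95.0) to 119 CPM, so that the 3 highest smoke samples lay above every air sample for both. The median SD over the cluster was 0.74 in smoke and 0.32 in air, and 1 of the 14 genes tested in air was called there, Mbp, which ran from 30.3 to 104 CPM in air with an SD of 0.49, against 0.44 in smoke. The genes were picked because they varied in smoke, which by itself favours a larger SD there. The difference in spread between the groups was not tested. Without replicates 2 and 10, 10 of the 16 genes were still called, and the SD was 0.62 for Pmp22 and 0.41 for Apod. Replicate 12 was then the highest sample for both.

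The fixed list of Schwann cell markers did not move as one. Of its 18 genes 14 were tested and 6 called, among them Mbp, Pmp22, Prx, Ncmap and Drp2, and the median SD was 0.62. The pairwise r had a median of 0.66, against −0.00125 over all tested genes. Mag, an adhesion molecule between myelin and axon, was highest in replicate 6 (13.2 CPM) and next in replicate 8 (9.41 CPM). S100b, a calcium-binding protein of Schwann cells, peaked in replicate 6 at 115 CPM, with replicate 2 next at 91.5 CPM. Neither was called (edgeR adjusted p = 0.989 for Mag and 0.0985 for S100b), and Sox10, the transcription factor of the Schwann cell lineage, had 5 to 17 counts and was under the limit for testing.

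A pair of genes from a list of neuron and brain genes was also highest in replicate 6. Nefm, the medium neurofilament of axons, ran from 19.3 (median 32.7) to 78.2 CPM, with replicate 6 highest and replicate 8 next at 56.5 CPM (SD 0.57, edgeR adjusted p = 0.00224). It shared a cluster with Slc1a2, a glutamate transporter, which ran from 10.6 (median 14.4) to 45.2 CPM, again highest in replicate 6 (SD 0.56, edgeR adjusted p = 0.0313). The list of 10 neuron and brain genes, called neuronal for short, was drawn up after these values had been seen. It summed to 70.2 CPM in replicate 12 and 223 CPM in replicate 6, and to 65.2 to 250.9 CPM in air. Of these 10 genes 2 were called, Nefm and Slc1a2. Nefh, the heavy neurofilament, was highest in replicate 8, at 15.3 CPM, and the sodium channel gene Scn8a in replicate 11, at 6.40 CPM. Nefm overlaps Nefl in the annotation and was not called without replicate 6. Slc1a2 was not called without replicate 6, when its SD was 0.37, or without replicate 11.

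SOX proteins drive myelin genes, and the core letters ACAAAG of their sites were searched on both strands in the promoters of 7 myelin genes, in 300-base windows from RefSeq (GRCm38.p6, 250 bases before to 50 after the start). Promoters were found for 5 of the 7 and none held these letters, which occur in 18.7% of 32851 promoters. This says only that the letters are not in these windows. Here and below, a gene counted as holding a motif if any of its promoters did, while the shares are over single promoters.

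Fmod and other genes of tendon were high in 2 other samples. Fmod (fibromodulin), which binds and spaces collagen fibrils, ran from 24.8 (median 55.3) to 390 CPM and was highest in replicates 13 and 5, at 390 and 294 CPM. Replicate 3 followed at 140 CPM, and no other sample exceeded 75.4 CPM. The highest level was 15.8-fold the lowest (SD 1.17, edgeR adjusted p = 3.38e-10), and Fmod was called in air too, where it ran from 59.7 (median 121) to 230.7 CPM. Tnmd (tenomodulin), a membrane protein of tendon cells, ran from 1.4 (median 5.8) to 31.3 CPM (edgeR adjusted p = 0.00091), with 24.3 CPM in replicate 5. Angptl7, a secreted angiopoietin-like protein, ran from 2.54 (median 6.68) to 37.2 CPM (edgeR adjusted p = 0.000233), highest in replicate 5. Angptl7 overlaps Mtor on the other strand.

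Of 13 listed tendon genes 8 were tested and 2 called, Fmod and Tnmd, with a median SD of 0.68. Thbs4, an extracellular protein of tendon and muscle, was also highest in replicates 5 and 13, at 41.04 and 35.06 CPM, and did not pass (edgeR adjusted p = 0.0808). Scx, the transcription factor of tendon progenitors, lay between 20.6 and 29.6 CPM with an SD of 0.16 and did not follow them. Of the 18 genes of the general collagen matrix 17 were tested and 0 were called by edgeR. At an unadjusted p under 0.05, 4 of the 17 passed, where 6.71% of all tested genes did, and the median SD was 0.30 against 0.28 over all genes. Col1a1 too was highest in replicates 13 and 5, at 53.02 and 47.88 CPM.

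The score of the matrix list was correlated with that of macrophage genes across the 13 samples, with Pearson's r 0.81 (permutation p = 0.00099, Benjamini-Hochberg adjusted p = 0.0099) and Spearman's rho 0.74 (permutation p = 0.00524, adjusted p = 0.0524). A score is the mean log2 CPM of the tested genes of a list. Without replicates 5 and 7, the farthest from the median matrix score, r was 0.56 (permutation p = 0.0753), so the relation rested in part on those samples. With the median over each list in place of the mean, r was 0.53 and did not pass (adjusted permutation p = 0.302). Of the 8 macrophage genes tested, edgeR called 0, also at an unadjusted p under 0.05, against 1.03% and 6.71% of all genes. The matrix and tendon scores had r 0.59 (permutation p = 0.0347) and did not pass adjustment (adjusted p = 0.0991).

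**Figure D4:**
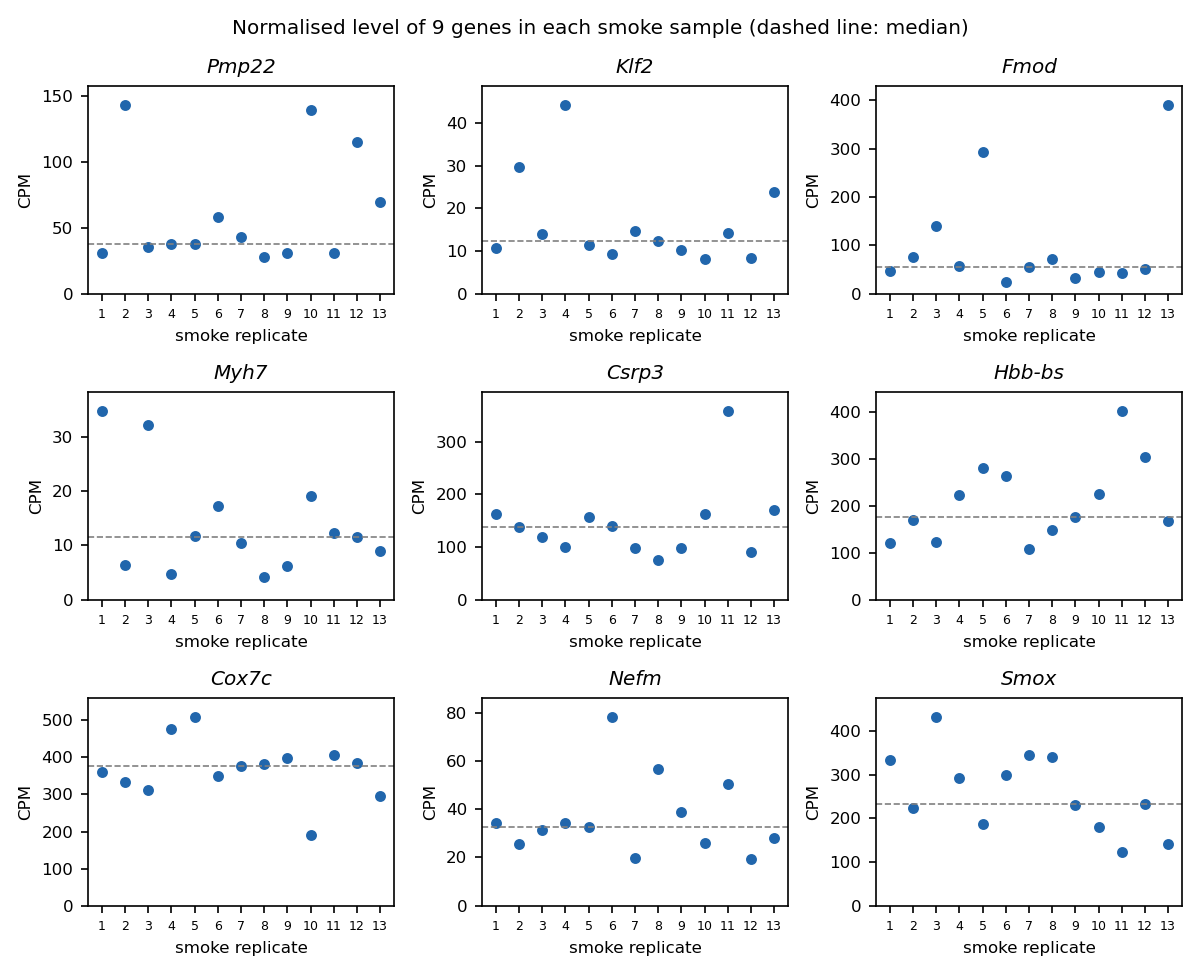
CPM of 9 called genes (1 panel each, vertical axes from 0) in smoke replicates 1 to 13, with the median as a dashed line. Pmp22 is high in replicates 2, 10 and 12, Fmod in 5 and 13, Myh7 in 1 and 3, Csrp3 and Hbb-bs in 11, and Cox7c is lowest in 10.

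Slow fibre genes varied between samples. Myh7, the myosin heavy chain of slow fibres, ran from 4.07 (median 11.6) to 34.8 CPM, with replicates 1 and 3 at 34.8 and 32.2 CPM and replicate 10 next at 19.0 CPM (SD 0.91, edgeR adjusted p = 0.00091). Tnnt1, slow troponin T, ran from 26.7 (median 53.3) to 142 CPM, highest in replicate 1 at 142 CPM and next in replicate 3 at 84.9 CPM (SD 0.70, edgeR adjusted p = 3.48e-05). Tnni1 and Tnnc1, the slow troponins I and C, were also highest in replicate 1, at 17.1 and 17.9 CPM, with lowest counts of 3 and 4, and Tnni1 was not called without replicate 1, 3, 4, 6, 8 or 9. These 4 genes formed a cluster of their own, lowest in replicates 4, 8 and 2. In air their median SD was 0.71, against 0.92 in smoke, and 1 of the 4, Tnnt1, was called there. These genes too were picked for their spread in smoke, and the difference in spread was not tested. Myh7 overlaps Mhrt, and Tnnc1 overlaps Nisch.

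Of 11 listed slow fibre genes 9 were tested and edgeR called 5. All 9 passed at an unadjusted p under 0.05, against 6.71% of all tested genes. The fifth called gene, Myl2, a regulatory light chain, was lowest in replicate 6 (41.9 CPM) and highest in replicate 11 (112 CPM). It clustered with Ankrd2 and Csrp3. Myl3 and Atp2a2, a slow light chain and the slow calcium pump, were not called (SD 0.27 and 0.37). Atp2a2 was nonetheless highest in replicates 1 and 3, at 42.3 and 36.4 CPM, and lowest in replicates 4 and 2, at 16.9 and 19.0 CPM. The slow fibre score had r −0.06 with the fast 2B score (adjusted permutation p = 0.843) and −0.25 with nuclear respiratory subunits (adjusted permutation p = 0.557). Of the 11 fast 2B genes edgeR called 0, also at an unadjusted p under 0.05, which is near the 1.03% and 6.71% of all genes, and their median SD was 0.12.

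A cluster of 6 genes, of which Ankrd2, Csrp3 and Flnc are on the fixed stretch list, was highest in a single sample. Csrp3 (muscle LIM protein), a sensor at the Z-disc, ran from 75.1 (median 137) to 359 CPM, with replicate 11 at 359 CPM and the next sample at 171 CPM (SD 0.57, edgeR adjusted p = 2.27e-05). Ankrd2, a stretch-induced ankyrin repeat protein, ran from 72.8 (median 121) to 282 CPM (edgeR adjusted p = 0.000104). Replicate 11 was highest and replicate 1 next at 232.5 CPM. Flnc, the muscle filamin, ran from 284 (median 385) to 635 CPM (edgeR adjusted p = 0.0168), and the chaperone Hspb7 from 73.8 (median 97.4) to 172 CPM. Lmcd1 had 72.4% of its spread in replicate 11 alone. All 6 genes of this cluster, with Myl2, were highest in that sample. Csrp3 and Hspb7 are also 2 of the 3 genes of the fixed list for fast 2A fibres, and both were called. Myh2, the 2A myosin heavy chain and the third of them, was at 4007 CPM in replicate 11, behind replicate 13 at 4510 CPM, and was not called. The 2A score was highest in replicate 11, at 9.30 in mean log2 CPM. As 2 of its 3 genes belong to this cluster, its peak there is not separate information. Myh4 (36184 CPM) and the fast 2B score (12.70) were lowest in that sample. The part of fibre type in this cluster was not tested. Flnc, Hspb7, Lmcd1 and Myl2 were not called when replicate 11 was left out, while Csrp3 and Ankrd2 were. Every smoke sample but replicate 11 lay under the highest air value for Csrp3, 286 CPM, and the lowest air value was 170 CPM.

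Ankrd1 and Abra, 2 further genes tied to load and actin signalling, formed a pair with replicates 11 and 2 highest. Ankrd1 was at 38.1 and 36.7 CPM in them, with a median of 18.1 CPM, and just passed (edgeR adjusted p = 0.0467), though not in 7 of the 13 fits that left out a sample. Of the 9 listed stretch genes 7 were tested and 4 called. Replicate 11 was also highest for 3 of the 6 tested red blood cell genes, described below.

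The M-CAT element, bound by TEAD factors in muscle genes, has the core letters CATTCC. These letters were searched on both strands in the promoters of 11 slow and stretch genes. They occurred in 5 of the 11, Myh7, Tnnc1, Ankrd1, Flnc and Hspb7, and in 14.7% of all 32851 promoters of the same length. The MEF2 site occurred in 0 of the 11 and in 3.19% of all. The promoter windows of Ankrd1 (chr19:36119795-36120094, minus strand) and Tnnc1 (chr14:31208062-31208361, plus strand), as RefSeq gives them on GRCm38.p6, are printed 5′ to 3′ with the matches in capitals. They were chosen after the matches were known, to show one gene of each profile, and a match is not evidence of binding.
Ankrd1: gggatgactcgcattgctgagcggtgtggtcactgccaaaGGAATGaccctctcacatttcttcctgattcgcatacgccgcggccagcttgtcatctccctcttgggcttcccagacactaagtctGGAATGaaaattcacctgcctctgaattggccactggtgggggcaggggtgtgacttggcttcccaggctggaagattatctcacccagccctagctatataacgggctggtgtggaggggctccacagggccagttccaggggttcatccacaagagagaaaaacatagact
Tnnc1: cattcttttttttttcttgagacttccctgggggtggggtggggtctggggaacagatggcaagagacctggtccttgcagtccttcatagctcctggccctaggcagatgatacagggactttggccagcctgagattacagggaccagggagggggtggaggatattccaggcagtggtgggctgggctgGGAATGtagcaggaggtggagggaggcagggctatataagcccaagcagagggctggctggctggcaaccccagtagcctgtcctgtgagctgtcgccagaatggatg

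A cluster of 14 genes was high in replicates 2 and 4. It joined the early transcription factors Egr1, Nr4a1, Nr4a2, Klf2 and Klf4 with Dusp1, a phosphatase that ends MAP kinase signalling, and Id1 and Id3, inhibitors of helix-loop-helix factors. It also held Apold1 and Bcl6b, which are expressed in endothelium, and Slc25a25, Otud1, Nedd9 and Krt10. Of the 14 genes 8 were highest in replicate 4 and 6 in replicate 2. Klf2, a factor that endothelial cells raise under blood flow, ran from 8.04 (median 12.2) to 44.2 CPM, with replicates 4, 2 and 13 at 44.2, 29.6 and 23.8 CPM (SD 0.71, edgeR adjusted p = 0.00393). Id1 ran from 3.54 (median 6.62) to 41.4 CPM (SD 0.98, edgeR adjusted p = 0.000292), and Nr4a2 from 2.33 (median 5.47) to 24.8 CPM (SD 0.98, edgeR adjusted p = 0.00254).

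Within the cluster the 2 samples were not alike. Egr1 was at 40.9 CPM in replicate 2 and at most 12.9 CPM elsewhere, and 60.3% of its spread came from that sample. Nr4a1 was at 85.6 CPM in replicate 4 and at 50.9 CPM in replicate 2. Egr1 was not called without replicate 2 (SD 0.48), nor Nr4a1 without replicate 4, nor Apold1 without either, when it was under the limit for testing. Klf2 was not called without replicate 4, nor Klf4 without replicate 2. In air 5 of the 14 were called, and air Egr1 reached 42.6 CPM. Of the 23 listed immediate-early genes 14 were tested and 4 called, Klf4, Nr4a1, Dusp1 and Egr1; Fos, Fosb and Atf3 were under the limit for testing. Heat shock chaperones, of which 13 were tested, held 0 called genes by edgeR, where 1.03% of all genes were called, and 3 at an unadjusted p under 0.05, where 6.71% of all genes passed. Their score had r 0.66 with the immediate-early score (adjusted permutation p = 0.0564) and 0.065 without replicates 2 and 4.

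Of 13 listed endothelial genes, all tested, edgeR called only Egfl7, against 1.03% of all genes, and 2 passed at an unadjusted p under 0.05, against 6.71%. Their median SD was 0.21, against 0.28 over all genes, which were not matched for abundance. Egfl7, a secreted vessel protein that overlaps Agpat2, ran from 27.4 CPM in replicate 10 to 72.4 CPM in replicate 13 and clustered with Neat1 and not with Klf2. It was not called without replicate 3, 7, 9 or 13.

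CREB-binding cyclic AMP response elements (CRE, letters TGACGTCA, palindromic) were searched in the promoters of 13 genes of this cluster, of which 10 had one in the table. Dusp1 and Slc25a25 held it, 2 of 10 genes, and 1.79% of all 32851 promoters, counted singly, did. The serum response element, by name, occurred in 0 of the 10 and in 1.63% of all. The windows of Dusp1 (chr17:26508423-26508722, minus strand) and Slc25a25 (chr2:32424017-32424316, minus strand), from RefSeq on GRCm38.p6, are the 2 that matched, with the element in capitals. Both genes are highest in replicate 4, at 90.4 and 46.5 CPM, and next highest in replicate 2, at 87.3 and 32.2 CPM.
Dusp1: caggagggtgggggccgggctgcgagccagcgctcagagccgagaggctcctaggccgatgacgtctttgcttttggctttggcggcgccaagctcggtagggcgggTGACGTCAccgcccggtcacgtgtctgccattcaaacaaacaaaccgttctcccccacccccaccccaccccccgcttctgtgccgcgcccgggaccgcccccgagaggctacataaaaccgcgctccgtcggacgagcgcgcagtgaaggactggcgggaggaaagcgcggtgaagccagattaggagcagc
Slc25a25: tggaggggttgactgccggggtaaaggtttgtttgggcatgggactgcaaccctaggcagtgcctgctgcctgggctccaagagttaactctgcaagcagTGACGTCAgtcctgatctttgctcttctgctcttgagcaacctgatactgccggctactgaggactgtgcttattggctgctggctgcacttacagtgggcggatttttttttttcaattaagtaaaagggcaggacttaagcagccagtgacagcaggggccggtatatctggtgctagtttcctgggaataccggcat

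Fat and 2 epithelial signatures met in a further cluster, all 11 genes of which were highest in replicate 2. Cfd (adipsin), a complement factor secreted by adipocytes, ran from 671 (median 961) to 1726 CPM, with replicate 10 next at 1488 CPM (SD 0.38, edgeR adjusted p = 0.000702). Scd1, the desaturase of fatty acid synthesis, was at 302 and 280 CPM in these 2 samples and at most 176 CPM in the rest (edgeR adjusted p = 0.000198). Of the 15 listed adipocyte genes 12 were tested and only Cfd was called, against 1.03% of all genes, while 7 passed at an unadjusted p under 0.05, against 6.71%. Adipoq (adiponectin) was also highest in replicates 2 and 10, at 85.3 and 66.9 CPM against a median of 41.8 CPM, and did not pass (edgeR adjusted p = 0.0634). Fabp4, which capillaries express as well, was at 688 CPM in replicate 2, below replicates 5 and 12, and at its lowest, 481 CPM, in replicate 10. Without replicates 2 and 10 together, only Cfd of the 11 genes was called, with an SD of 0.25.

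Scores of adipocyte and lipogenic genes had Pearson's r 0.74 (permutation p = 0.00518, Benjamini-Hochberg adjusted p = 0.0259) and Spearman's rho 0.54 (permutation p = 0.0588, adjusted p = 0.208). Myelin and adipocyte scores had r 0.74 (permutation p = 0.00461, adjusted p = 0.0259) and rho 0.52 (permutation p = 0.0728, adjusted p = 0.208). Without replicates 2 and 10, r was 0.22 in both relations (permutation p = 0.521 and 0.507), so both rested on these samples. With list medians in place of means neither passed, with r 0.46 for adipocyte with lipogenic genes (adjusted permutation p = 0.302) and 0.70 for myelin with adipocyte genes (adjusted permutation p = 0.0988). Of the 20 relations examined, 4 passed adjustment of r.

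The same cluster held transcripts of the seminal vesicle: Svs1, Svs2, Svs4, Svs5 and Spink1. These encode secretory proteins of a male accessory gland and have no known role in muscle. All 13 smoke samples held them. Svs5 ran from 250 (median 343) to 538 CPM and Svs4 from 154 (median 217) to 345 CPM, both highest in replicate 2 and next in replicate 10 (edgeR adjusted p = 0.0164 and 0.0292). A list of 9 such genes, added after these values had been seen, summed to 853 CPM in replicate 4, at the median to 1089 CPM, and to 1700 CPM in replicate 2. In air the sum lay between 698 and 1252 CPM. The median pairwise r of the 9 genes over the smoke samples was 0.87, and 5 were called. Without replicate 2, only Svs1 of these 5 was called. The source of these transcripts was not tested.

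Krt15, a keratin of the basal epidermis and hair follicle, had the largest SD of the called genes. It had 111 counts in replicate 2, 37 in replicate 7, 1 each in replicates 4 and 13 and 0 in the other 9 samples (SD 1.87, edgeR adjusted p = 1.77e-06). Krt14, the basal epidermal keratin, had 80 counts in replicate 2, 13 in replicate 7 and at most 1 elsewhere. Krt10, of the upper epidermis, was at 51.5 CPM in replicate 2 and at most 14.4 CPM in the rest (edgeR adjusted p = 0.000292). Fam25c, at 48.9 CPM in replicate 2, and at 5.97 CPM in replicate 7, had the same 2 leading samples (edgeR adjusted p = 2.74e-06). Without replicate 2 the SD was 1.12 for Krt15, 0.92 for Fam25c and 0.50 for Krt10, and none of the 3 was called, Krt15 and Fam25c being then under the limit for testing. The 9 listed skin genes summed to 152 CPM in replicate 2 and to 4.93 CPM in replicate 10. Replicate 2 is thus the sample highest for skin, fat, seminal vesicle and most myelin genes, and the part of these tissues in its other values was not tested. Replicate 10, high for myelin, fat and seminal vesicle genes, had 0 counts of Krt15 and Krt14.

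**Figure D5:**
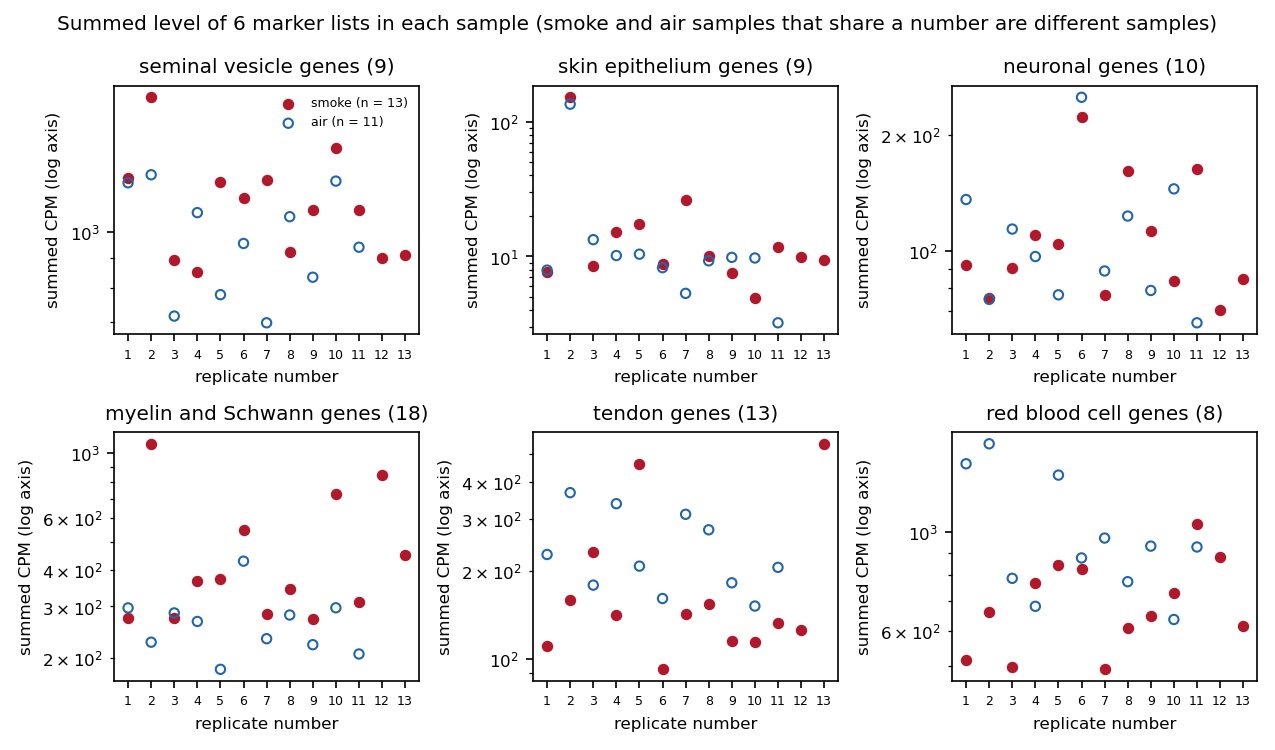
Summed CPM, without TMM factors, of 6 marker lists (vertical log axes) in each smoke sample (filled red, n = 13) and air sample (open blue, n = 11) against replicate number. Myelin genes reach 1078 CPM in smoke replicate 2, neuronal genes 223 CPM in smoke replicate 6, tendon genes 540 CPM in smoke replicate 13, and skin genes 152 CPM in smoke replicate 2 and 135 CPM in the highest air sample.

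Globin genes formed another cluster. Hbb-bs, an adult beta globin, ran from 109 CPM in replicate 7 (median 176) to 402 CPM in replicate 11 (SD 0.57, edgeR adjusted p = 2.5e-05). Hbb-bt and Hba-a2, further globins, were also lowest in replicate 7 and highest in replicate 11, and all 3 were called in air as well. Hba-a1 was not called and ran only from 151.9 to 251.5 CPM. The 2 beta globin genes are near-identical copies of each other, as are the 2 alpha globin genes, and reads may be shared out wrongly within each pair. Of 8 listed red blood cell genes 6 were tested and 3 called, and the blood score had r −0.39 with the endothelial score (adjusted permutation p = 0.385).

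The largest cluster, of 20 genes, was lowest in replicate 10, with a mean z score of −1.97, and highest in replicates 5, 11 and 4, at 1.11, 1.05 and 1.01. It mixed small subunits of the respiratory chain and ATP synthase (Cox7c, Ndufa1, Usmg5, mt-Nd3 and mt-Nd6) with Yipf7, Gnas, Asb5, Pdlim5, Slc20a2, Rmnd5a, Cystm1, Pmpcb, H1f0, Gnb2, Fam131a, Rassf3, Ice1, Rnf115 and Cyp26b1, and 16 of the 20 were lowest in replicate 10. Cox7c, a subunit of cytochrome c oxidase, was at 190 CPM there, with a median of 378 and a highest level of 510 CPM in replicate 5 (SD 0.35, edgeR adjusted p = 0.0113). Yipf7, a membrane protein of the secretory pathway, ran from 45.3 (median 91.8) to 153 CPM (SD 0.51, edgeR adjusted p = 0.000941). Without replicate 10, Cox7c, Ndufa1, Usmg5, H1f0, Pmpcb and mt-Nd3 were not called, and the other 14 genes of the cluster were. Cyp26b1, which breaks down retinoic acid, had the widest spread of the cluster, from 7.73 (median 39.8) to 64.0 CPM (SD 1.07, edgeR adjusted p = 1.19e-05). It was lowest in replicate 12, then 10 and 6.

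The fixed list of nuclear respiratory subunits does not hold Cox7c or Usmg5. Of its 43 tested genes edgeR called only Ndufa1, against 1.03% of all genes, and 4 passed at an unadjusted p under 0.05, against 6.71%. Their median SD was 0.10, and it was 0.13 for ribosomal protein genes and 0.13 for glycolysis and glycogen genes. The 0.28 over all genes includes genes of far lower abundance and is not a like measure. DESeq2 called only Sdhd in this list, a gene with 2 to 31 counts. In air 16 of the 20 genes of the cluster were called too, and there the median SD was 0.59 against 0.47 in smoke. Of the 13 mitochondrially encoded mRNAs 8 were tested and 2 called, mt-Nd3 and mt-Nd6, and mt-Nd3 had as few as 3 counts, in replicate 10. Ribosomal protein genes, 25 tested, and genes of glycolysis and glycogen, 18 tested, held 0 called genes each by edgeR, against 1.03% of all genes, with 0 and 3 at an unadjusted p under 0.05, against 6.71%.

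A cluster of 7 genes with Neat1 was low in replicates 9 and 10. Neat1, the long non-coding RNA that builds paraspeckles, ran from 552 CPM in replicate 9 (median 1338) to 1754 CPM in replicate 3, with replicates 10 and 7 at 767 and 816 CPM (SD 0.47, edgeR adjusted p = 0.000106). With it went Rsrp1, Snrnp70 (a spliceosome protein), Gadd45g, Egfl7, A330023F24Rik and the gene of Mir133a-2. Reads primed on poly(A) tails at that locus measure a longer transcript and not the mature miRNA. Rsrp1 ran from 149 (median 304) to 403 CPM, lowest in replicate 10 (SD 0.43, edgeR adjusted p = 0.000941). Malat1, another nuclear RNA, did not share this profile and was at 876 CPM in replicate 9 and 811 CPM in replicate 10, above its median of 797 CPM. It was lowest in replicates 7 and 5, at 429 and 453 CPM, highest in replicate 1, at 966 CPM, and clustered with Gm42418 and BC049352.

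Several hormone, clock and metabolic genes varied in pairs. Dbp and Per1, outputs of the circadian clock, were lowest in replicate 11, at 22.4 and 7.27 CPM, against medians of 57.37 and 17.99 CPM, and highest in replicate 2 (edgeR adjusted p = 0.00686 and 0.00393). Dbp was not called without replicate 11. Per1 also responds to glucocorticoids, and Dbp overlaps Sphk2. Of the 9 tested clock output genes these 2 were called, against 1.03% of all genes, and 6 passed at an unadjusted p under 0.05, against 6.71%. Of 5 genes of the opposite phase edgeR called 0, which is near that share, and 1 passed at an unadjusted p under 0.05. The 2 scores had r −0.41 (adjusted permutation p = 0.373). The clock E-box, CACGTG, occurred on either strand in the promoter of Per1 alone among 5 genes searched, and in 7.15% of all promoters.

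Cish, an inhibitor of cytokine signalling induced by growth hormone, ran from 4.95 CPM in replicate 6 (median 29.0) to 59.4 CPM in replicate 1 (SD 0.97, edgeR adjusted p = 8.38e-05). Chac1, a glutathione-degrading enzyme induced by ATF4, had the same lowest and highest samples, 11.2 and 53.6 CPM (edgeR adjusted p = 0.00206). Both were called in air. Cish was the only called gene among 17 of the atrophy list, where 1.03% of all genes were called, and 3 of the 17 passed at an unadjusted p under 0.05, where 6.71% did. The list's ubiquitin ligases Fbxo32 and Trim63 lay between 424 and 692 CPM and between 105 and 174 CPM.

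Smox and Amd1, enzymes of polyamine oxidation and synthesis, varied with the kinase gene Sbk2 and were not called in air. Smox ran from 122 CPM in replicate 11 (median 231.8) to 432.5 CPM in replicate 3 (SD 0.54, edgeR adjusted p = 5.95e-05), with replicate 13 also low at 142 CPM. Amd1 ran from 81.4 CPM in replicate 13 (median 144) to 197 CPM in replicate 7 (edgeR adjusted p = 0.0061). Txnip, which binds thioredoxin and limits glucose uptake, and Nmrk2, a muscle kinase of NAD synthesis, formed another pair. Nmrk2 ran from 147 (median 203) to 435 CPM, highest in replicate 3 (edgeR adjusted p = 5.95e-05), and Txnip from 490 (median 710) to 1115 CPM, highest in replicate 12 (edgeR adjusted p = 0.00518). Pfkfb3, which sets the level of an activator of glycolysis, ran from 142 CPM in replicate 11 (median 276) to 482 CPM in replicate 12 (edgeR adjusted p = 0.000115). Fkbp5, a glucocorticoid-induced chaperone, ran from 35.3 CPM in replicate 3 (median 53.6) to 86.3 CPM in replicate 9 (edgeR adjusted p = 0.0212). Pfkfb3 was called in air and Fkbp5 was not, and Fkbp5 was not called without replicate 3 or 9.

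Few genes on which smoke components act could be tested. Of 10 listed targets of the aryl hydrocarbon receptor, the receptor that binds such components, 4 were tested and edgeR called 0, also at an unadjusted p under 0.05. With 1.03% of all genes called, 0 of 4 says nothing about these targets. Tiparp ran from 4.02 (median 8.63) to 11.4 CPM and Nqo1 from 10.4 (median 13.2) to 16.2 CPM. Of the 8 tested interferon genes edgeR called 0 (1 at an unadjusted p under 0.05), and of the 4 tested neutrophil genes 0 at either limit. Over the 41 fixed lists, 19 held a called gene. The other 22, with 179 tested entries between them, held 0 by edgeR, by voom and by DESeq2, and 24 (13.4%) at an unadjusted p under 0.05 in edgeR, against 6.71% of all tested genes.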

How the data were processed

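The deposited table gives unnormalised read counts for 47643 Ensembl genes, 1 column a sample, from which the 13 smoke columns were used, and the 11 air columns as background. Libraries were made with a 3′ QuantSeq kit, per the labels' protocols. The submitters' processing notes name STAR, DESeq2 and the build mm9 without their roles, and the counting tool, strand setting and annotation are not given in the sources used here. Symbols and the overlaps between genes came from GENCODE M21 (GRCm38), which held 47224 of the IDs (99.1%). Its gene coordinates were used for the overlaps only.

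Genes with a total of at least 130 counts over the 13 samples were kept and scaled by TMM in edgeR 4.0.16 (R 4.3.3). An intercept-only quasi-likelihood model was fitted. Each gene's dispersion was compared with the robust F distribution that limma 3.58.1 fits along abundance, in the upper tail, with Benjamini-Hochberg adjustment. On simulated counts the procedure called 0 of 9967 genes when none had added variation. With 200 changed genes it called 147 of 9955, 142 of them changed, and recovered 51% of those with an added SD of 0.5 and 92.9% of those with 1. Log2 CPM used a prior count of 2. Called genes were clustered by average linkage on 1 minus Pearson's r, with branches joined up to a height of 0.5. The 20 relations between list scores or library measures used two-sided permutation tests with 100000 resamples.

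The genes named are the 20 called genes with the largest SD, up to 4 called genes of each list, and the 4 nearest the mean of each cluster of 8 or more. Other named genes, the seminal vesicle, neuronal and flow lists, the motifs, the promoters shown and the fit without replicates 2 and 10 were chosen after values were seen. A list of 6 endothelial flow genes, chosen in that way, held 4 called genes (Klf2, Klf4, Bcl6b and Apold1). The subject of the report, the 41 gene lists and the relations were chosen with earlier results of these data known. Alternatives covered scaling, filters, threshold, thinning, voom, DESeq2 1.42.0, list scoring, clustering and leaving out each sample. No sample was left out for quality. Values of some single genes are not reported here.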

Additional observations from a re-analysis of the deposited data

How the results depend on the processing

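Against 104 variable genes, RLE scaling gave 109, upper-quartile scaling 113, the filterByExpr filter 78, an adjusted p under 0.10 gave 143, removal of the 10 most abundant genes 103 and thinning to the smallest library 101. Limma voom gave 93 (89 shared) and DESeq2 dispersion outliers 102 (86 shared). A limit of 13 counts in total gave 206 genes, with 15977 tested, and one of 650 counts gave 27, with 4919 tested. Leaving out each sample in turn gave 91 to 125 genes, and 56 of the 104 were called in all 13 such fits. Of the other 48, 22 were lost without replicate 2 (3 of them no longer tested) and 15 without replicate 11. Clusters of 8 or more genes numbered 3 with Spearman's rho and 4 with complete linkage or a height of 0.4.

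With the median over a list, r of myelin with adipocyte genes was 0.70 (adjusted permutation p = 0.0988), of matrix with macrophage genes 0.53 (0.302) and of adipocyte with lipogenic genes 0.46 (0.302), none of which passed. Relations that did not pass in the first place changed sign: with the median, slow with fast 2B fibre genes to 0.028, glucocorticoid with atrophy genes to −0.047 and clock output with glucocorticoid genes to −0.051. With z scores, slow fibre genes with respiratory subunits went to 0.0061 and glucocorticoid with fasting genes to −0.034. When samples were left out in turn, r of slow with fast 2B fibre genes lay between −0.18 and 0.023, of glucocorticoid with atrophy genes between −0.060 and 0.22, of myelin with adipocyte genes between 0.56 and 0.82, of adipocyte with lipogenic genes between 0.48 and 0.81, and of the mitochondrial share with component 1 between −0.87 and −0.63. The last 3 lost their call without replicate 10, and the first 2 of these also without replicate 2. The Gm42418 share with component 1 lay between 0.56 and 0.77 and passed without replicate 1, 5, 11 or 13. For both shares, component 1 was computed anew from the samples kept in each fit. Immediate-early with heat shock genes lay between 0.42 and 0.73 and passed without replicate 5 or 13. The cause of these changes was not tested. Among named genes, 12 values under other fits missed the threshold, 7 of them under voom (Krt15, Apold1, Otud1, Gm10801, Tnni1, Egr1 and Ankrd1). Thinning lost Tnni1, mt-Nd3 and mt-Nd6, and filterByExpr lost Egfl7 and Ankrd1. At this depth 3 counts are up to 1.19 CPM without TMM factors, which limits what can be said of genes near that level. No paired analysis was possible because no test was made between groups.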

Other observations

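Gm10800 and Gm10801, a pair of annotated protein-coding loci of unknown role, were also among the variable genes and shared a profile. Gm10800 ran from 2.25 CPM in replicate 12 (median 16.0) to 49.4 CPM in replicate 5 (SD 1.15, edgeR adjusted p = 5.95e-05), and replicate 1 was next at 39.0 CPM. Gm10801 ran from 0.966 CPM in replicate 12 (median 3.46) to 14.6 CPM in replicate 1 and passed narrowly (edgeR adjusted p = 0.0477). Gm10800 was called in air as well, where it ran from 5.78 to 49.7 CPM.

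The 2 samples with the largest skin sums of the series, 152 CPM in smoke and 135 CPM in air, both carry the replicate number 2. The 2 with the largest neuronal sums, 223 CPM in smoke and 250.9 CPM in air, both carry the number 6. The seminal vesicle sum was also highest in the number 2 of both groups. Over the 41 fixed lists the highest smoke and air samples shared a number in 4, and over all 44 lists, with the 3 added after values were seen, in 6. Unrelated numbers, evenly split, would match in 7.69% of lists, and 4 of 41 is near that share. Nothing in the labels says that a number marks a shared day or batch.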
